A study of Homo sapiens with 6 samples.

Results

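The collagen genes were read from RNA-sequencing counts of SW480, a human colorectal cancer cell line, as every table row whose symbol is COL, a type number, A and a chain number. This gave 44 genes of 56638 rows, and rows for antisense transcripts and pseudogenes were left out. The TGFB1 group of 3 libraries came from cells given TGF-β1 at 10 ng/ml on more than 4 occasions, and the control group of 3 libraries from cells left without it. Both groups were labelled as passages 16 to 19, and no genetic change was named for either. The question addressed here is how each collagen chain differed between the groups, and whether chains that build 1 protein together moved together.

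A collagen molecule is a triple helix of 3 α chains, each encoded by its own gene, and chains of 1 type can combine in fixed or alternative ways. Fibrillar types form the fibres of connective tissue, type IV forms the mesh of basement membranes, type VII anchors epithelia to the tissue beneath, and the remaining types decorate fibrils, span membranes or carry cleavable fragments. Carcinoma cells make several basement membrane collagens themselves, while most fibrillar collagen of a tumour is made by fibroblasts. TGF-β1, a cytokine that signals through SMAD transcription factors, is a classical inducer of collagen genes in fibroblasts.

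Libraries held 13012898 to 16005222 counts in genes. Of the markers for a colorectal epithelium, KRT8 stood at 1655 to 1712 CPM (read counts as a proportion of the scaled library total, the usual unit for comparing 1 gene between libraries), but EPCAM stood at 3.36 to 7.495 CPM, KRT19, KRT20, VIL1 and CDX1 were near the detection limit, and CDX2 had no count in any library. The labels do not say whether the replicates were grown apart, so each p-value here speaks of the spread among these libraries, and that spread may be technical. In bulk RNA, fewer cells of a type and less RNA per cell cannot be told apart.

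The stretches of DNA just before the transcription start are shown for chains on which the results below turn. These are the pairs of type IV chains that lie head to head and share a start region, the strongly counted COL5A1 and COL7A1, COL6A2, and COL9A2 as a chain that fell. Sequences are RefSeq's on GRCh38.p14, a later build than the one named for the counts. Except for the first line, which spans the whole stretch of 126 bases between the starts of COL4A1 and COL4A2, each line gives the 250 bases before the start. Capitals mark CAGAC, the core of the element that SMAD proteins bind, and GGGCGG, the GC box, each on either strand.
COL4A1 and COL4A2 (chr13:110307158-110307283, plus strand): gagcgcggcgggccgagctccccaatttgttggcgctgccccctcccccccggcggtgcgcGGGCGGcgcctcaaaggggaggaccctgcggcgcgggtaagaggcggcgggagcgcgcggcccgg
COL4A3 (chr2:227164374-227164623, plus strand): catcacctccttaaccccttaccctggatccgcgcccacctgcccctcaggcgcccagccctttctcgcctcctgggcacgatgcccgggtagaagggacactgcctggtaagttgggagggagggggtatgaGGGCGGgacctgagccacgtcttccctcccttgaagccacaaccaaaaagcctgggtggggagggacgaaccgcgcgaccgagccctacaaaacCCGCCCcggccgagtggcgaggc
COL4A5 (chrX:108439588-108439837, plus strand): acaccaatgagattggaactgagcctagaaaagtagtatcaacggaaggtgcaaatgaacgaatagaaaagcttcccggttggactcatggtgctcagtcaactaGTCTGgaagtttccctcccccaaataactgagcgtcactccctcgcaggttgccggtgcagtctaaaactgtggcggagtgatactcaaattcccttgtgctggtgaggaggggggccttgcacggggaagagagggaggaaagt
COL5A1 (chr9:134641553-134641802, plus strand): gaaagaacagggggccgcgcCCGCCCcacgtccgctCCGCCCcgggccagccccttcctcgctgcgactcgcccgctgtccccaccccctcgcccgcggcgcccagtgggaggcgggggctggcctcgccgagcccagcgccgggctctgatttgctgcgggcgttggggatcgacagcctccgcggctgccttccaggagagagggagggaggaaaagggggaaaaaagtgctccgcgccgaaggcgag
COL6A2 (chr21:46097862-46098111, plus strand): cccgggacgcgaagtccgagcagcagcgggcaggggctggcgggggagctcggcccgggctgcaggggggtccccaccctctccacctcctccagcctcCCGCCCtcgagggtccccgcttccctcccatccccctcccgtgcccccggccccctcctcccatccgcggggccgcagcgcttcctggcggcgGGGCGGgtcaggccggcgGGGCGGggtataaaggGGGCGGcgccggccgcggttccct
COL7A1 (chr3:48595330-48595579, minus strand): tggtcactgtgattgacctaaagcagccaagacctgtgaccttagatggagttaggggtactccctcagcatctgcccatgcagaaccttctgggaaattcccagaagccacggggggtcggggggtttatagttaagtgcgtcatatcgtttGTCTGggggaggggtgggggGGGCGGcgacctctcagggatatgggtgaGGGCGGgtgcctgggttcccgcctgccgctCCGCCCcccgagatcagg
COL9A2 (chr1:40317287-40317536, minus strand): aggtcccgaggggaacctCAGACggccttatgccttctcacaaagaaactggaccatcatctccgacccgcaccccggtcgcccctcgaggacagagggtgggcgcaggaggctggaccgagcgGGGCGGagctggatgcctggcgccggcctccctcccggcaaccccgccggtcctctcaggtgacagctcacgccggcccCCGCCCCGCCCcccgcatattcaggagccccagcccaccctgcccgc

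For 32 of the 44 chains at least 1 start region was found in the RefSeq table, with 44 regions in all. CAGAC or its reverse complement GTCTG lay in 16 of these 44 regions (36.4%), against 38.0% of 35116 regions of the same length over all genes. GGGCGG or CCGCCC lay in 24 (54.5%), against 42.6% of all. By chain, CAGAC was in a region of 4 of 14 chains that were higher with TGF-β1, 1 of 2 that were lower and 2 of 3 that did not pass. A match describes the letters only. The capitals show CAGAC near both COL7A1, which rose, and COL9A2, which fell, and none before COL5A1 or between COL4A1 and COL4A2. The COL4A3 line shows none either, but 1 lies before COL4A4, in the part of their shared stretch that is not printed.

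Collagen transcripts took a larger share of all counts in the TGFB1 libraries. They made up 0.2805% ± 0.00875 of gene counts in control libraries and 0.607% ± 0.0208 in TGFB1 libraries (SD, n = 3), with no overlap between groups and a ratio of 2.16 ± 0.1003. Type IV and type VII chains led in control cells, at 40.7% ± 0.392 and 26.4% ± 0.381 of collagen counts. The fibrillar class went from 13.7% ± 0.405 to 27.5% ± 0.247 of collagen counts. Within it, COL5A1 went from 9.83% ± 0.319 to 25.1% ± 0.170 of collagen counts, and COL1A1 from 2.84% ± 0.0171 to 1.76% ± 0.0336. COL12A1 fell from 8.43% ± 0.326 to 4.65% ± 0.171 of collagen counts although its own level was not lower. These shares are descriptions of the chosen family and carry no test.

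**Figure D1:**
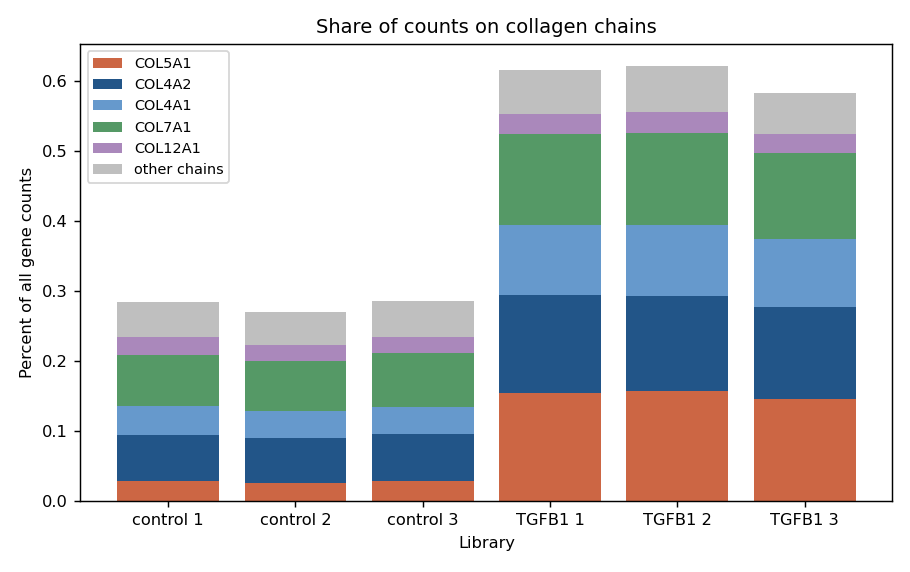
Percent of all gene counts that fell on collagen chains (vertical axis) in each of the 6 libraries (horizontal axis), with the 5 most counted chains in colour and the other chains in grey. The control bars end between 0.270% and 0.286% and the TGFB1 bars between 0.583% and 0.622%, and the COL5A1 segment differs the most.

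Of the 44 chains 25 had enough counts to be tested, and 17 of these were higher, 3 were lower and 5 did not pass. The threshold was an edgeR adjusted p of 0.05, by the quasi-likelihood test, with p-values adjusted after Benjamini and Hochberg over 14897 genes. Among all tested genes 47.3% were called, 23.4% as higher and 23.9% as lower. COL6A2, COL17A1 and COL20A1 had enough counts for a test in the TGFB1 group alone, so that their direction was given by the filter, and COL5A2 and COL25A1 in the control group alone. Among the 20 chains that passed in both groups 14 were higher, 3 were lower and 3 did not pass, with a median log2 fold change of 0.64, beside 0.00033 over all tested genes. Against a change of 1.5-fold, 12 of the 25 chains were higher and 1 was lower, where 6.10% of all tested genes were higher and 4.95% lower. Among the 20 chains that passed the filter in both groups, 9 were higher and 1 was lower by this test. The chain that was lower was COL9A3, and the number lower was 3 without TGFB1 2 and 2 without control 1, TGFB1 1 or TGFB1 3. The 3 TGFB1 libraries lay entirely above the control libraries in 17 tested chains and entirely below in 5, where 54.2% of all tested genes did one or the other, 27.0% above and 27.3% below. Of the 20 chains that passed in both groups, 14 lay above and 3 below.

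**Figure D2:**
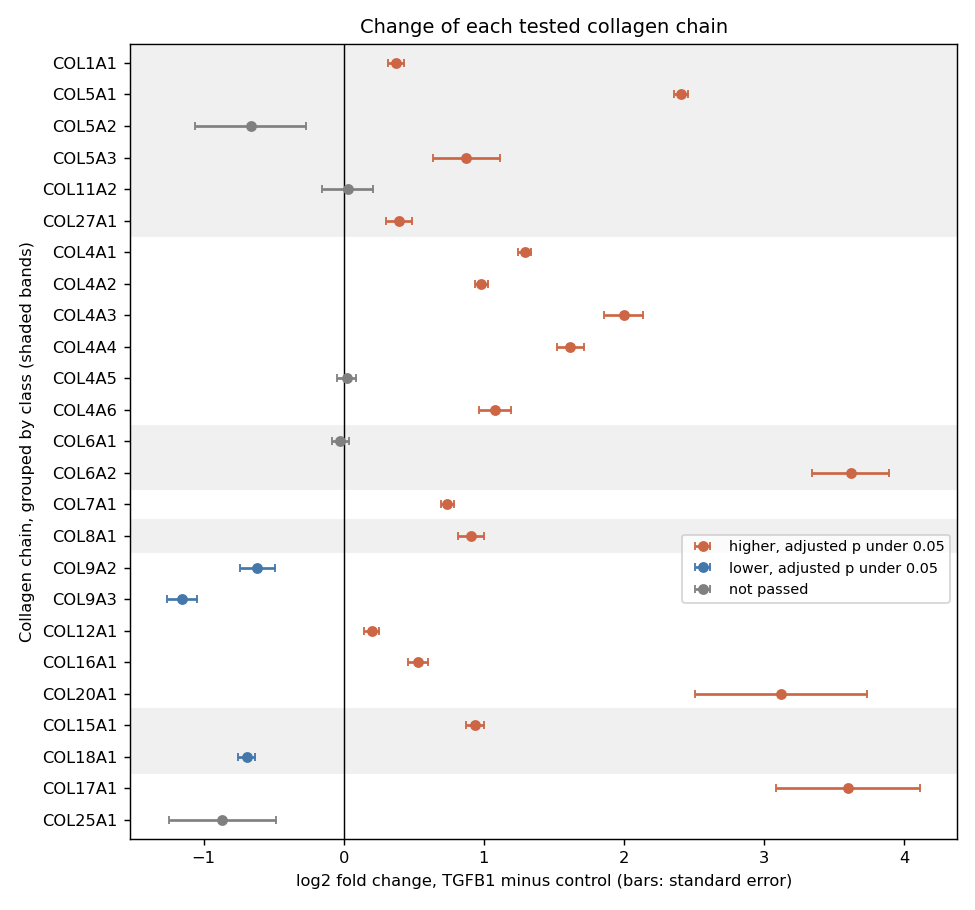
Log2 fold change, TGFB1 minus control, of each of the 25 tested chains (horizontal axis; bars are standard errors), by class in shaded bands (vertical axis). The rises run up to 3.62 for COL6A2, which passed the filter through the TGFB1 libraries alone. Among chains that passed in both groups the rises run up to 2.41 for COL5A1, and the largest called fall is −1.15 for COL9A3.

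Basement membrane type IV chains rose in 5 of 6, beside 23.4% called higher among all tested genes. The sixth, COL4A5, did not pass. COL4A1 and COL4A2 build the type IV helix found in nearly all basement membranes. COL4A1 stood at 410, 388 and 396 CPM in control libraries 1, 2 and 3 and at 994, 979 and 950 CPM in the TGFB1 libraries. It rose 2.45-fold, a log2 fold change of 1.29 ± 0.046 (SE, edgeR adjusted p = 2.00e-19). COL4A2 stood at 669, 666 and 689 CPM in control and at 1371, 1334 and 1293 CPM with TGF-β1. The rise was 1.98-fold (0.98 ± 0.045, edgeR adjusted p = 7.93e-17). In both genes the libraries of a group lay close together and the groups were far apart.

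COL4A3 and COL4A4, which join COL4A5 in the helix of the mature kidney filter and of a few other tissues, were counted at far lower levels and showed the larger folds. COL4A3 stood at 5.36, 3.26 and 3.94 CPM in control and at 15.6, 18.5 and 15.8 CPM with TGF-β1, 3.99-fold higher (2.00 ± 0.141, edgeR adjusted p = 1.26e-12). COL4A4 stood at 16.2, 12.6 and 16.8 CPM in control and at 46.5, 51.8 and 41.5 CPM with TGF-β1, 3.07-fold higher (1.62 ± 0.097, edgeR adjusted p = 4.51e-13). The lowest TGFB1 library of either gene was more than 2-fold above the highest control library. COL4A6, which pairs with COL4A5 in smooth muscle and some epithelial basement membranes, stood at 6.32, 6.18 and 6.34 CPM in control and at 13.9, 13.1 and 12.9 CPM with TGF-β1 (2.11-fold, edgeR adjusted p = 7.76e-09). COL4A5 stood at 75.5, 63.2 and 65.3 CPM in control and at 70.0, 72.1 and 64.5 CPM with TGF-β1. Its groups overlapped, and its log2 fold change of 0.02 ± 0.067 did not pass (edgeR adjusted p = 0.825).

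The genes of each type IV pair lie head to head, with 126 bases between the RefSeq starts of COL4A1 and COL4A2 and 418 between those of COL4A4 and COL4A3. From COL4A5 to the nearer RefSeq start of COL4A6 there are 379 bases. COL4A6 has another start at chrX:108438422, farther from COL4A5 and outside that stretch, and the counts per gene do not separate the starts. The ratio between partners was compared next. COL4A1 relative to COL4A2, per length of transcript, went from 0.579 ± 0.0197 in control to 0.718 ± 0.00513 with TGF-β1, and COL4A3 relative to COL4A4 from 0.3399 ± 0.0617 to 0.442 ± 0.0280 (SD, n = 3). COL4A5 relative to COL4A6 went from 11.3 ± 1.02 to 5.40 ± 0.295. In each of these 3 pairs the ratios of the 2 groups did not overlap, which held for the levels of 54.2% of all tested genes. The exact permutation test over libraries, two-sided, gave p = 0.1 for each, the smallest value that 3 against 3 libraries can give, so none of these changes could pass a threshold of 0.05. For COL4A3 and COL4A4 the groups were close, with 0.409 in control 1 and 0.414 in TGFB1 1.

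**Figure D3:**
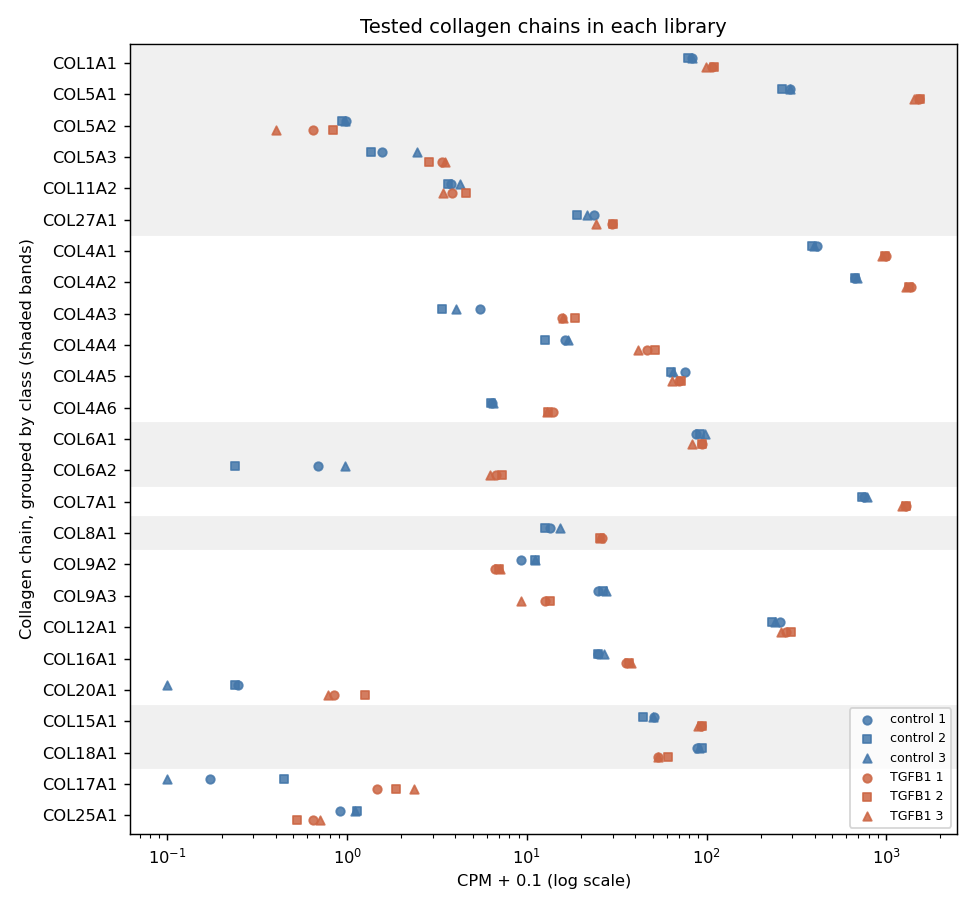
CPM plus 0.1 on a log scale (horizontal axis) of the 25 tested chains in each library (blue, control; orange, TGFB1; symbols are replicate numbers), by class in shaded bands (vertical axis). In the TGFB1 libraries COL4A1, COL4A2, COL5A1 and COL7A1 lie between 950 and 1536 CPM and COL12A1, the next chain, between 259 and 295 CPM, and the groups overlap in COL4A5, COL6A1 and COL11A2.

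Fibrillar chains rose in 4 of 6 tested, beside 23.4% called higher among all tested genes, and COL5A2 and COL11A2 did not pass. Against a change of 1.5-fold only COL5A1 was higher among the 6. COL5A1, the main chain of the type V collagen that nucleates and thins fibrils, had the largest fold of the strongly counted chains. It stood at 290.5, 263 and 292 CPM in control and at 1526, 1536 and 1426 CPM with TGF-β1, 5.31-fold higher (2.41 ± 0.052, edgeR adjusted p = 1.96e-24). Its usual partner COL5A2 did not follow. COL5A2 stood at 0.881, 0.833 and 0.868 CPM in control and at 0.544, 0.733 and 0.302 CPM with TGF-β1, lower in each TGFB1 library than in any control library but not past the test (−0.66 ± 0.397, edgeR adjusted p = 0.178). The rarer COL5A3, another type V chain, stood at 1.47, 1.249 and 2.34 CPM in control and at 3.26, 2.75 and 3.40 CPM with TGF-β1 (1.84-fold, edgeR adjusted p = 0.00354). Per length of transcript, COL5A1 exceeded COL5A2 by a factor of 273 ± 8.69 in control and 2682 ± 1138 with TGF-β1, and COL5A3 by 130 ± 33.7 and 351 ± 51.2.

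Type I collagen, the main fibre of skin, bone and tumour stroma, normally combines COL1A1 with COL1A2. COL1A1 stood at 82.4, 78.3 and 83.2 CPM in control and at 107, 109 and 99.1 CPM with TGF-β1, a rise of 1.30-fold (0.37 ± 0.056, edgeR adjusted p = 2.60e-06). COL1A2 had no count in the 3 control libraries, which allows up to 0.0698 CPM, and 2 counts in the TGFB1 libraries together. COL3A1, the other abundant fibrillar chain of fibroblasts, had no count in control and 3 counts with TGF-β1. Both genes were thus at or under the detection limit in both groups. COL27A1, a fibrillar chain of cartilage, had a mean of 21.4 ± 2.28 CPM in control and 28.0 ± 3.33 CPM with TGF-β1, a 1.32-fold rise (edgeR adjusted p = 0.000741). COL11A2, also of cartilage, had means of 3.78 ± 0.316 in control and 3.84 ± 0.577 CPM with TGF-β1, which did not pass (0.03 ± 0.181, edgeR adjusted p = 0.908), while its partner COL11A1 had 5 counts over all libraries.

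**Figure D4:**
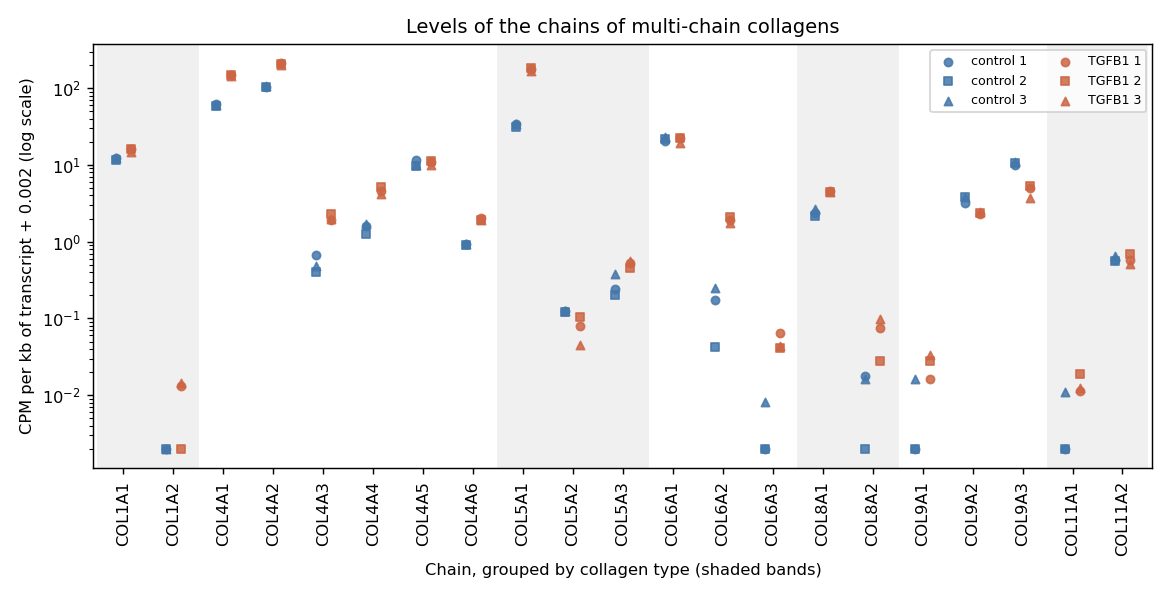
CPM per kilobase of transcript plus 0.002 on a log scale (vertical axis) of the chains of collagens that have several chains (horizontal axis, types in shaded bands), for each library (blue, control; orange, TGFB1; symbols are replicate numbers). COL1A1, COL5A1, COL6A1 and COL8A1 lie far above their partners in every library, while COL4A1 and COL4A2 lie close together.

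Type VI collagen forms beaded filaments around cells and needs COL6A1, COL6A2 and a further chain such as COL6A3. COL6A1 stood at 86.7, 91.7 and 97.2 CPM in control and at 94.2, 94.1 and 82.3 CPM with TGF-β1, with overlapping groups and a log2 fold change of −0.02 ± 0.061 (edgeR adjusted p = 0.768). COL6A2 had 8, 2 and 13 counts in control and 98, 117 and 81 counts with TGF-β1, a mean of 0.531 ± 0.368 against 6.64 ± 0.519 CPM (12.3-fold, edgeR adjusted p = 7.23e-12). It passed the filter through the TGFB1 libraries alone, so its direction was given by the filter. Its log2 fold change of 3.62 was 3.16 without control 2 and 4.18 without control 3, since few control counts carry it. COL6A3 had 1 count in control and 23 with TGF-β1, a ratio of 22.3 with an exact 95% counting interval of 3.62 to 919. Per length, COL6A1 exceeded COL6A2 by a factor of 91.5 to 539 in the control libraries and of 10.7 to 11.6 in the TGFB1 libraries. Thus the 3 chains stood at unequal levels in both groups. The ratio changed by −3.88 on the log2 scale, and by −4.33 without control 3, −4.14 without control 1 and −3.18 without control 2.

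COL7A1, the single chain of the anchoring fibrils under epithelia, was the most counted collagen gene in the control libraries and came after COL5A1 and COL4A2 in the TGFB1 libraries. It stood at 751, 735 and 781 CPM in control and at 1281, 1291 and 1215 CPM with TGF-β1, 1.67-fold higher (0.74 ± 0.046, edgeR adjusted p = 6.77e-14). COL17A1, a transmembrane chain that holds epithelial cells to the basement membrane, had 1, 5 and 0 counts in control and 20, 29 and 30 counts with TGF-β1. Its mean went from 0.140 ± 0.183 to 1.80 ± 0.453 CPM (edgeR adjusted p = 1.12e-06), and its direction was given by the filter, passed through the TGFB1 libraries alone. The log2 fold change of 3.60 was 5.36 without control 2, which held 5 of the 6 control counts, and 3.00 without control 3. COL8A1, a short network-forming chain of vessel walls and the cornea, stood at 13.3, 12.5 and 15.2 CPM in control and at 26.1, 25.6 and 25.4 CPM with TGF-β1 (1.88-fold, edgeR adjusted p = 1.40e-09), while its partner COL8A2 had 2 and 13 counts.

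The 2 multiplexins, collagens with sugar side chains whose ends can be cut off as antiangiogenic fragments, went in opposite directions. COL15A1, source of restin, stood at 50.7, 44.1 and 49.95 CPM in control and at 93.2, 94.4 and 89.5 CPM with TGF-β1, 1.92-fold higher (0.94 ± 0.062, edgeR adjusted p = 3.45e-13). COL18A1, source of endostatin, stood at 88.8, 93.7 and 90.5 CPM in control and at 53.8, 61.0 and 53.8 CPM with TGF-β1, 1.62-fold lower (−0.69 ± 0.061, edgeR adjusted p = 1.56e-10). Per length, COL18A1 stood above COL15A1 in every control library and below it in every TGFB1 library, with means of 13.8 against 8.78 and 8.54 against 16.8 CPM per kilobase.

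Fibril-associated chains, which sit on the surface of fibrils, were divided. Of the 4 that passed the filter in both groups 2 were higher and 2 were lower, beside 23.4% and 23.9% of all tested genes, and COL20A1, called higher, passed through the TGFB1 libraries alone. The 2 that fell belong to type IX, a cartilage collagen. COL9A3 stood at 24.7, 26.3 and 27.5 CPM in control and at 12.6, 13.3 and 9.13 CPM with TGF-β1, a fall of 2.22-fold (edgeR adjusted p = 3.20e-10). COL9A2 fell 1.53-fold, from 10.4 ± 1.05 to 6.79 ± 0.233 CPM (edgeR adjusted p = 0.000164), and COL9A1 had 1 and 5 counts. COL16A1, a minor chain linked to small fibrils, rose from 25.4 ± 1.01 to 36.7 ± 1.00 CPM (1.44-fold, edgeR adjusted p = 4.71e-07). COL12A1, a large chain that bridges fibrils, stood at 255, 230 and 240 CPM in control and at 278, 295 and 259 CPM with TGF-β1, a small rise of 1.15-fold (edgeR adjusted p = 0.00216). COL20A1 had 4 counts in control and 39 with TGF-β1 (3.12 ± 0.615, edgeR adjusted p = 0.000110), and its mean stayed under 1 CPM. Its log2 fold change was 2.54 without control 3.

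**Figure D5:**
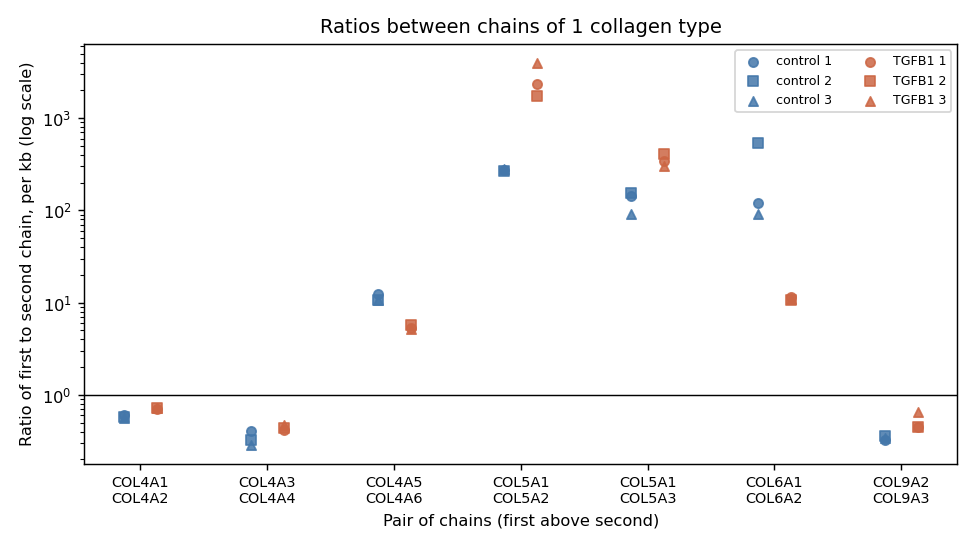
Ratio of the first to the second chain of 7 pairs, per kilobase of transcript on a log scale (vertical axis), in each library (blue, control; orange, TGFB1; symbols are replicate numbers; the line marks a ratio of 1). The groups do not overlap in any pair, and the highest ratios are those of COL5A1 to COL5A2 in the TGFB1 libraries, at 1750.0 to 3950.

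Ratios between chains of 1 type were compared in 7 of 11 pairs, those with at least 30 counts in each chain. The ratio needs no scaling between libraries, since both chains are read from the same one. All 7 pairs had groups that did not overlap and an exact permutation p of 0.1, also 0.1 after Benjamini-Hochberg adjustment over the 7. With 3 against 3 libraries this p only restates that the groups did not overlap. Single levels did not overlap in 54.2% of all tested genes, and no such share was computed for pairs of other genes. COL5A1 is in the pairs with COL5A2 and with COL5A3, so the pairs are not independent. The change of the log2 ratio was 0.31 for COL4A1 to COL4A2, 0.39 for COL4A3 to COL4A4, −1.06 for COL4A5 to COL4A6 and 0.57 for COL9A2 to COL9A3. For COL5A1 it was 3.16 against COL5A2 and 1.48 against COL5A3. The other 4 pairs had a chain too low to compare, such as COL1A2 at 2 counts beside COL1A1 at 8175 over all libraries.

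Per length of transcript, the order of the leading chains changed. In control libraries COL4A2 led at 104 CPM per kilobase, followed by COL7A1 at 81.4, COL4A1 at 60.1 and COL5A1 at 33.2. With TGF-β1 COL4A2 led at 205, followed by COL5A1 at 177, COL4A1 at 147 and COL7A1 at 136. Within each group no libraries of neighbours in this order overlapped. COL6A1 and COL12A1, next in both groups, overlapped in both, at 21.7 and 20.6 CPM per kilobase in control and at 21.3 and 23.6 with TGF-β1. COL1A1 stood at 12.1 and 15.6 CPM per kilobase, so COL5A1 exceeded it by a factor of 2.75 ± 0.0730 in control and 11.3 ± 0.139 with TGF-β1.

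The 19 chains that were not tested had between 1 and 52 counts over the 6 libraries, and 12 of the 44 chains had fewer than 10. Those described here were chosen after their values were seen. COL24A1, a fibrillar chain, had 9, 14 and 23 counts in control and 3, 3 and 0 with TGF-β1. COL14A1, a fibril-associated chain, had 7, 5 and 7 counts in control and 1, 1 and 3 with TGF-β1. COL13A1, a transmembrane chain of cell junctions, had no count in control and 8, 5 and 6 counts with TGF-β1, which is at least 6.14-fold higher when control is set to 3 counts for the whole group. COL6A6 had 27 counts in control and 22 with TGF-β1. COL25A1, a transmembrane chain of neurons, was tested and stood at 0.9501 ± 0.125 and 0.525 ± 0.0894 CPM without passing (−0.86 ± 0.380, edgeR adjusted p = 0.0629). The other untested chains, among them the cartilage chains COL2A1 and COL10A1, had group means of at most 0.520 CPM, that of COL6A3 with TGF-β1.

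Genes that make, cut, crosslink and bind collagen were followed in a list of 51, of which 36 were tested, 24 were higher, 5 were lower and 7 did not pass, beside 23.4% higher and 23.9% lower among all tested genes. Of the 24, LEPREL2, ITGA11, MMP2 and CTSK had their direction set by the filter. Prolyl hydroxylase subunits, which stabilise the helix, were unlike each other. The catalytic P4HA3 had a mean of 20.8 ± 1.87 CPM in control and 66.9 ± 0.319 CPM with TGF-β1, a 3.22-fold rise (edgeR adjusted p = 1.19e-17), and P4HA2 rose 1.77-fold, while their shared partner P4HB fell from 779.5 ± 9.69 to 512.5 ± 12.3 CPM (edgeR adjusted p = 3.12e-12). LEPREL2, a prolyl 3-hydroxylase, had 19 counts in control and 91 with TGF-β1 and passed the filter only through the latter. Of 15 tested hydroxylation and folding genes 7 rose, 3 fell and 5 did not pass, among them the collagen chaperone SERPINH1 at 281 ± 14.2 and 305 ± 15.7 CPM (edgeR adjusted p = 0.0555). Of 4 tested secretion genes 2 rose, 1 fell and 1 did not pass. SEC23A, of the coat that carries procollagen from the endoplasmic reticulum, fell from 110 ± 11.8 to 76.8 ± 0.797 CPM, and SEC24D and MIA3 rose 1.17-fold and 1.14-fold.

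Of 8 listed genes of propeptide removal 4 were tested, and these 4 rose, beside 23.4% called higher among all tested genes. Among the untested amino-propeptidases, ADAMTS3 had 14 counts in control and 0 with TGF-β1, and ADAMTS2 had 2 and 15. BMP1, which cuts the carboxyl propeptide of fibrillar chains, went from 100.3 ± 2.33 to 179 ± 9.02 CPM (edgeR adjusted p = 5.58e-14), its relative TLL1 rose 1.30-fold, and the enhancers PCOLCE2 and PCOLCE 1.81-fold and 1.497-fold. Of 4 tested crosslinking genes 3 rose and LOXL3 did not pass, beside the same 23.4%. LOX, the founding lysyl oxidase, had a mean of 13.2 ± 1.33 CPM in control and 95.1 ± 3.15 CPM with TGF-β1, a 7.20-fold rise (edgeR adjusted p = 2.09e-22), and LOXL1 and LOXL2 1.76-fold and 1.23-fold. Of 7 tested receptors 6 rose and DDR1 fell, beside 23.4% higher and 23.9% lower among all tested genes. Of the 6, DDR2 had overlapping groups, at 1.665 to 2.74 CPM in control and 2.45 to 4.52 CPM with TGF-β1. The collagen-binding integrin subunits ITGA2 and ITGA1 rose 3.61-fold and 2.17-fold, their partner ITGB1 1.67-fold and the uptake receptor MRC2 1.93-fold. ITGA11, a further such subunit with 4 counts in control and 177 with TGF-β1, passed the filter only through the latter. The same holds for both tested degradation genes, MMP2, with 3 and 81 counts, and CTSK, with 41 and 80. CTSK had overlapping groups, at 0.514 to 1.336 CPM in control and 1.132 to 2.106 CPM with TGF-β1. It did not pass against a change of 1.5-fold.

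Of 10 listed fibroblast markers other than collagens 4 were tested, and these 4 were called higher, beside 23.4% among all tested genes. PDGFRB and DCN rose, from 7.99 ± 0.373 to 14.8 ± 2.01 CPM and from 3.37 ± 0.0921 to 7.54 ± 0.920 CPM (edgeR adjusted p = 3.29e-07 and 4.57e-07). THY1 and FAP were also called higher but had enough counts only in the TGFB1 group. FAP had 1 count in control and 51 with TGF-β1. THY1 had 23 and 52 counts, with overlapping groups (edgeR adjusted p = 0.0208), and did not pass against a change of 1.5-fold. Among the untested markers, LUM had 9 counts in control and 3 with TGF-β1, and ACTA2 had 23 and 25. The summed level over the 10 genes ran from 12.2 to 13.5 CPM in control and from 21.6 to 27.3 CPM with TGF-β1, most of it PDGFRB and DCN. CDH11 had no count in any library, PDGFRA, PRRX1 and POSTN had 1 each over all libraries, and the fibroblast collagen genes COL1A2 and COL3A1 had 2 and 3. Of 9 listed epithelial markers 4 were tested, and 3 of these fell, beside 23.9% called lower among all tested genes. KRT18, a keratin of simple epithelia, went from 183.5 ± 7.36 to 125 ± 2.59 CPM (edgeR adjusted p = 1.73e-10) and EPCAM, an epithelial adhesion protein, from 6.94 ± 0.543 to 4.06 ± 1.00 CPM (edgeR adjusted p = 0.000246). CDH1, the epithelial cadherin, had 47 counts in control and 12 with TGF-β1 (edgeR adjusted p = 0.000610) and passed the filter only through the control libraries. KRT8 did not pass, at 1711 ± 1.33 and 1678 ± 20.4 CPM (edgeR adjusted p = 0.628). The part of either list in the collagen results was not tested. No source used here says whether strand was used in counting, and reads of a chain and of an antisense gene cannot be told apart. The antisense rows COL5A1-AS1, COL4A2-AS1 and COL18A1-AS1 held 53, 27 and 18 counts over all libraries.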

How the data were processed

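Total RNA of 3 control and 3 TGFB1 libraries was sequenced, and the authors deposited whole-number read counts per gene symbol without normalization. Per the submitters' processing notes, HTSeq, TopHat and TopHat2 (version 2.0.11) were used with hg19 or GRCh37, and their roles are not stated. The sources used here do not give annotation, strand setting or filters. Lines without a gene (5.44% to 5.98% no feature, 9.01% to 9.43% ambiguous, 12.0% to 12.5% not unique) stayed out of tests.

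Genes were filtered with edgeR 4.0.16 (filterByExpr, minimum count 10, minimum total 15), scaled by TMM and tested with the robust quasi-likelihood fit in R 4.3.3. A second test (glmTreat) used a change of 1.5-fold. CPM are counts per TMM-scaled library, with SD over 3 libraries, and standard errors were derived from F statistics. Levels per kilobase used the longest GENCODE 29 transcript. Pair ratios had 0.5 count added for the exact permutation test (scipy 1.17.1). A floor of 3 counts and 95% exact intervals cover counting error only. Replicates differed by more than sampling noise (chi-square per degree of freedom 1.76 to 4.34). The fits were tested on simulated data.

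Collagen genes of at least 1 CPM over all libraries or called, and up to 4 genes of lowest p per pathway list, were named. The untested chains, COL5A2, COL25A1, SERPINH1, ITGA11, DDR1, DDR2, ADAMTS2 and ADAMTS3 were named after their values were seen. An older symbol was used where a table held it. Members and lists were chosen with earlier results of these data known. DESeq2 1.42.0, other scalings and filters, the replicate block and leaving out each library were alternatives.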

Additional observations from a re-analysis of the deposited data

How the results depend on the processing

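The 20 called collagen chains kept their call and direction under every setting run (DESeq2, 3 other scalings, 2 other filters, the replicate block, each library left out), except that COL20A1 was not tested with at least 1 CPM in 3 libraries. Without a count filter COL13A1, COL24A1 and COL6A3 were called as well, and COL24A1 also without control 1 or any TGFB1 library. Counts of chains called without each library in turn were 17 higher and 3 to 4 lower. With the replicate block the counts were 17 higher and 3 lower, and 3355 and 3420 over all genes, and no call of a chain changed. Replicate numbers did not pair the libraries, with correlations of deviations between same-numbered libraries of −0.107 to 0.0306. Alternatives for the test against 1.5-fold were chosen after seeing the data: 2 chains fell past it with no filter, and 1 to 3 when a library was left out (COL9A3 always, COL24A1 without control 1 or any TGFB1 library, COL18A1 without TGFB1 2). The collagen share ratio was 2.32 without COL7A1, the most counted chain. Since COL7A1 itself rose 1.67-fold, less than the ratio of 2.16 over all chains, leaving it out could only raise the ratio. COL5A1 rose 5.31-fold, more than that ratio, so leaving it out could only lower the ratio. It took 0.0276% ± 0.00173 of gene counts in control libraries and 0.152% ± 0.00622 in TGFB1 libraries (SD, n = 3). All chains together took 0.2805% and 0.607%. The ratio without COL5A1 was not among the settings run.

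Scaling by library size alone called 4216 genes higher and 2879 lower, against 3483 and 3561. DESeq2 called 2965 and 3076. Chains that did not pass changed sign. COL6A1 was at 0.032 with library size alone, 0.010 without control 3 and 0.034 without TGFB1 3, with a range of −0.069 to 0.034 over libraries left out. COL4A5 was at −0.037 without control 2, −0.016 without control 3 and −0.015 without TGFB1 2, with a range of −0.037 to 0.10 over libraries left out. COL11A2 was at −0.025 without control 2 and −0.10 without TGFB1 2, with a range of −0.10 to 0.12. Chains under about 1 CPM are limited by depth.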
